A study of Mus musculus with 24 samples.

Results

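Epor, Tfrc, Rhd, Rhag, Ermap, Kel, Ank1, Car1 and Car2 were followed through 4 sorted populations of mouse blood progenitors, with and without Ikaros. These 9 erythroid receptor, membrane and carbonic anhydrase genes were taken by symbol, using the probe sets that the platform annotates to 1 of these symbols only, from a table of 18193 genes. They had 17 probe sets, of which 3 are array control probe sets of Tfrc. For 7 of the 9 genes there was 1 probe set, for Tfrc 3 beside the controls, and for Ank1 4. Each gene was tested by its brightest probe set, and all 9 were measured in every group.

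Red cells are made from progenitors that first gain a receptor for the hormone erythropoietin and then a heavy demand for iron, a membrane built to survive the circulation, and the enzymes that handle carbon dioxide. Epor encodes the erythropoietin receptor, which signals through the kinase Jak2, and Tfrc encodes the transferrin receptor that brings iron into the cell. Rhd and Rhag encode partners of the Rh complex of the red cell membrane, Ermap and Kel encode further blood group proteins, Ank1 encodes the ankyrin that ties the membrane to its spectrin skeleton, and Car1 and Car2 encode cytosolic carbonic anhydrases. Ikaros is the DNA-binding protein made from Ikzf1 and is best known for its part in lymphocyte development.

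RNA from sorted cells was hybridised to 24 Affymetrix arrays, 3 for each of 8 groups. KO cells lacked Ikaros through the null allele of the I74 line, kept on C57BL/6 x 129SV, and WT cells came from wild-type mice. Both genotypes carried a GFP reporter driven by Ikaros sequence, B-p-GFP-C, which was kept on C57BL/6 x C3H, and the labels give no age. The labels equate LK GFPneg with MEP, progenitors of megakaryocytes and red cells, and LK GFPhi with GMP, progenitors of granulocytes and monocytes. They call LSK GFPneg-lo HSC, the stem cell population, and LSK GFPhi LMPP, progenitors primed towards lymphocytes. LSK cells are lineage-negative cells with Sca-1 and Kit, and LK cells are lineage-negative with Kit. The reporter that sorted the cells is itself built from Ikaros regulatory sequence, and the null line brings another strain, so that strain and genotype cannot be told apart. The labels do not say whether an array holds cells of 1 animal or a pool, and p-values measure the spread between these arrays. Ikzf1 lay between 6.51 and 8.88 on KO arrays and between 10.99 and 11.99 on WT arrays (log2 signal). The Y-linked Eif2s3y (7.88 to 10.40) and the female-expressed Xist (11.97 to 13.31) were both high on every WT array, as in a mix of both sexes. On KO arrays Xist was at 12.41 to 13.36, while Eif2s3y was at 3.99 to 4.14 on some and 7.20 to 8.33 on others. The mix of sexes thus differed between genotypes and is partly confounded with genotype in the KO minus WT comparisons.

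The labels of the populations were checked against marker genes. In LK GFPneg cells the erythroid transcription factor genes Gata1 and Klf1 reached 12.13 to 12.26 and 12.19 to 12.54 on KO arrays, against 12.01 to 12.22 and 12.00 to 12.16 on WT arrays. In LSK GFPneg-lo cells they were at 10.53 to 11.31 and 9.87 to 10.10 in KO, and 10.05 to 11.20 and 9.36 to 10.25 in WT. By the mean of 17 erythroid transcription factor genes, however, LK GFPneg overlapped LSK GFPneg-lo in both genotypes. That mean was 10.65 to 10.85 against 10.58 to 10.83 in KO, and 10.73 to 10.90 against 10.66 to 10.93 in WT. The mean of 14 granulocyte and monocyte progenitor genes was highest in LK GFPhi cells (11.40 to 11.56 in KO and 10.51 to 11.16 in WT). The mean of 14 stem cell genes was highest in LSK GFPneg-lo cells (9.56 to 9.97 in KO and 9.35 to 9.65 in WT). The mean of 13 early lymphoid genes was highest in LSK GFPhi cells, where it was 8.14 to 8.37 in KO and 9.32 to 9.50 in WT. In KO this holds by group mean only, as LK GFPhi arrays (7.50 to 8.21) overlapped those of LSK GFPhi. Values are log2 signal after RMA normalization by the authors, on a scale that ran from 3.33 to 14.5. Precision is limited by having 3 arrays in a group. KO LK GFPhi replicate 3 stood apart from the other arrays of its group for most of the genes, and KO minus WT differences in LK GFPhi are also given without it where that moves them by over 1.5 times or ends a call.

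Promoter windows were found for 6 of the 9 genes, with 2 for Tfrc, and the 5 windows that hold a GATA match are shown. Each window runs from 250 bases before to 50 bases after a start in RefSeq's promoter table, 5′ to 3′ on the gene's own strand, on GRCm38.p6. That start is the first base of the gene's whole interval for Rhd, Epor and the first Tfrc window, and lies 50, 18 and 9 bases inside it for Rhag, Ermap and Kel and 226 bases inside it for the second Tfrc window. Capitals mark matches on either strand to GATA motifs (AGATAA or AGATAG or TGATAA or TGATAG) and to CACCC, the letters that factors such as GATA1 and KLF1 are known to bind. In Rhag, Ermap and Kel the separate capital triplet is the E-box part of a composite motif, CTG followed after any 9 bases by GATAA, of which the GATA match is the other part.
Rhag, chr17:40810899-40811198, plus strand: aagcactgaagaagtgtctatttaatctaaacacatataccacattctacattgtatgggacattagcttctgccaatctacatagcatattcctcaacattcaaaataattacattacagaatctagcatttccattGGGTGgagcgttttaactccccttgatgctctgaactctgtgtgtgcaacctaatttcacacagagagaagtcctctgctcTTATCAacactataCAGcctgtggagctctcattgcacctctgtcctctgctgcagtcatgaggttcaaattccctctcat
Rhd, chr4:134864286-134864585, plus strand: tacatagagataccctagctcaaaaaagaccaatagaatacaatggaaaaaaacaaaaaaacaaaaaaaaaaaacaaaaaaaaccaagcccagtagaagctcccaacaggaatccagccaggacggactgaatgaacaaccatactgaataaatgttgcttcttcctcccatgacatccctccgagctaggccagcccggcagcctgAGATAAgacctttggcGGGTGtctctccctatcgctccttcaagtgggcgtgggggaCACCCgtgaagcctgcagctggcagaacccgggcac
Ermap, chr4:119189946-119190245, minus strand: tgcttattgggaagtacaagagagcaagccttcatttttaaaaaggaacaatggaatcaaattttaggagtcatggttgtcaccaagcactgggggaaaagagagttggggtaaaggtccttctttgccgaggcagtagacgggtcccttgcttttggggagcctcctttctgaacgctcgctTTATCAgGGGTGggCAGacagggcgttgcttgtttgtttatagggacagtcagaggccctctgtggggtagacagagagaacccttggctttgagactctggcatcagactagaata
Kel, chr6:41704276-41704575, minus strand: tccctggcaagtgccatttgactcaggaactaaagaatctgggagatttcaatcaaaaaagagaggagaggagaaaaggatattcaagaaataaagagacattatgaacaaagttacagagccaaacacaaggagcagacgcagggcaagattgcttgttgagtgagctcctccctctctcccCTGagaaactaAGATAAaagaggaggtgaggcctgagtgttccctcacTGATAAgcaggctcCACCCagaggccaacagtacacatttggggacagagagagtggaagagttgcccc
Epor, chr9:21963527-21963826, minus strand: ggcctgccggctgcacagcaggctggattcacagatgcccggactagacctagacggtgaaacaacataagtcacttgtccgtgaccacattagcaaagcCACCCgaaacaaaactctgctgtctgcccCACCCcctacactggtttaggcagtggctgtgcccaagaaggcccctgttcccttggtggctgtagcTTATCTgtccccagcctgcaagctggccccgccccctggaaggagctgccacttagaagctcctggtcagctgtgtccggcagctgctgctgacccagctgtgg

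A GATA match lay in 5 of 7 member windows and in neither window of Tfrc, beside 29.8% of all 32851 windows of the same length. Counted to the start that each window is built on, the matches of Epor, Rhd and Rhag began 54, 43 and 31 bases before it, that of Ermap 67 bases before it, and the 2 of Kel 56 and 19 bases before it. CACCC was found in all 7 member windows, beside 57.5% of all windows. The composite motif was found in Rhag, Ermap and Kel, 3 of 7 member windows, beside 0.861% of all windows. The letters GGGAA, the core that Ikaros is known to bind, were found on either strand in 4 of 7 member windows (Ermap, Kel, Epor and Rhag), beside 62.7% of all windows. No GATA match overlapped a CACCC match. The matches are letters in a window and say nothing on their own about binding.

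All 9 genes were highest in LK GFPneg cells in both genotypes. Against LSK GFPhi, all 9 were higher in LK GFPneg cells of KO mice and all 9 in those of WT mice, where 12.3% and 15.1% of all genes were called higher. Against LK GFPhi, all 9 were again higher in KO and all 9 in WT, with 10.6% and 8.6% of all genes called higher. Against LSK GFPneg-lo, 8 were higher in KO and 8 in WT, with 9.14% and 13% called higher. A gene was called where its limma p, adjusted over 18193 genes, fell below 0.05. The exception to the last count was Car2 in both genotypes, and it was called in both with replicate number as a block in the fit. In each of these 6 comparisons every LK GFPneg array of all 9 genes lay above every array of the other group. Such a gap upwards was found for 17.2%, 12.9% and 17.2% of all genes in KO (against LSK GFPhi, LK GFPhi and LSK GFPneg-lo), and for 19.9%, 15.5% and 21.6% in WT. In bulk RNA, fewer cells of a type and less RNA per cell cannot be told apart.

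**Figure D1:**
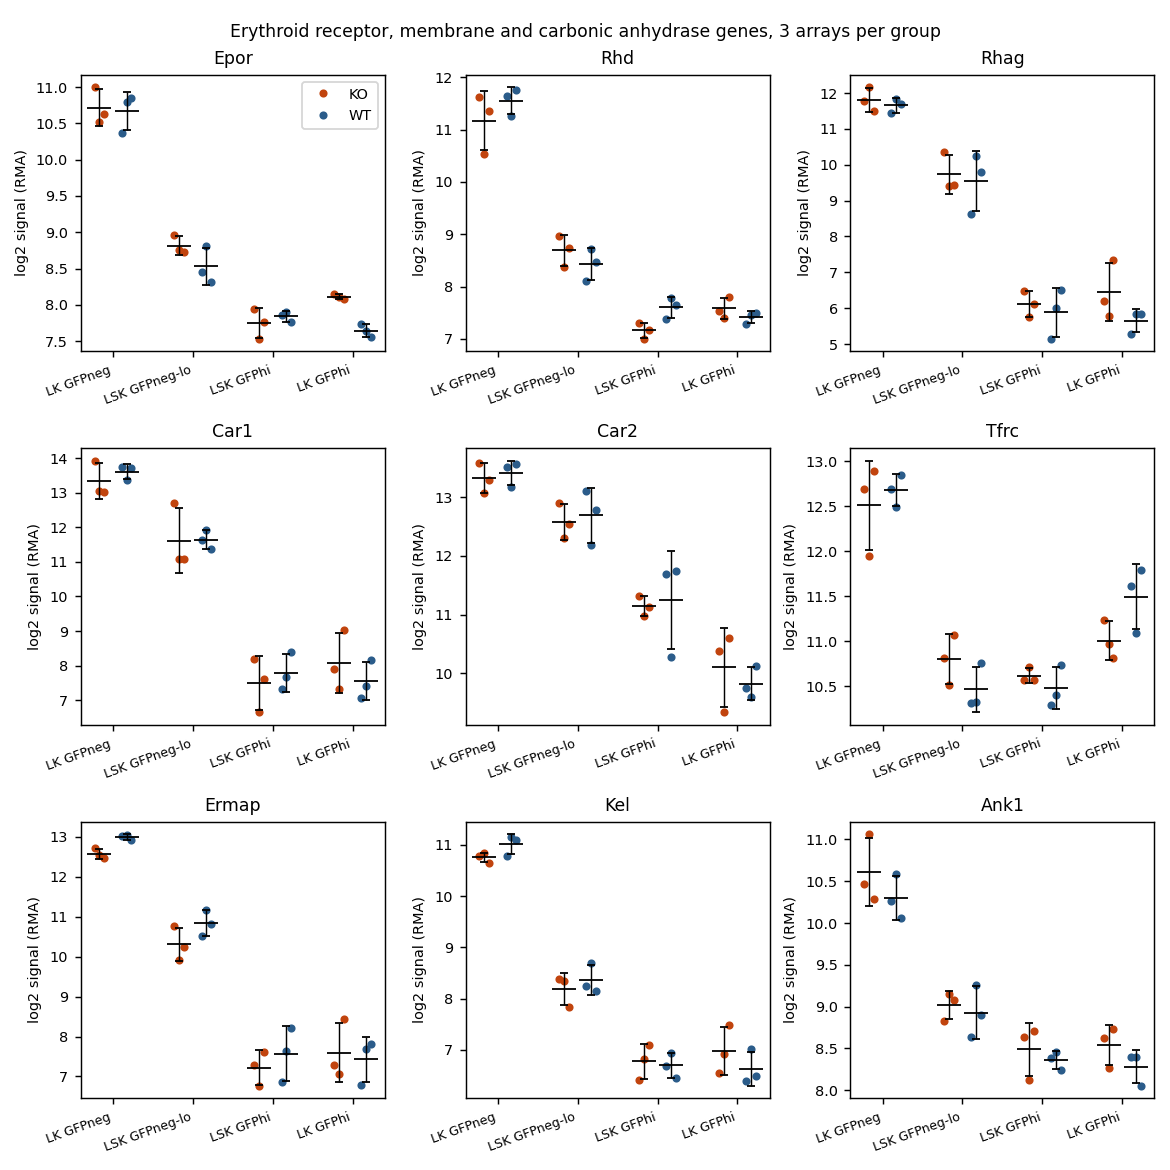
Log2 signal (RMA) of each gene's tested probe set on each of 24 arrays, by population, with KO (orange) left of WT (blue); points are arrays, horizontal bars the group mean and vertical bars the SD of 3 arrays. Within each genotype LK GFPneg arrays are highest in every panel, and Tfrc is the panel in which LK GFPhi lies next by mean, at 10.81 to 11.23 in KO (overlapping LSK GFPneg-lo) and 11.09 to 11.79 in WT.

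The erythropoietin receptor gene Epor (chromosome 9, 21958897 to 21963576 on GRCm38.p6, as for all gene positions here) was at 11.00, 10.51 and 10.62 in KO LK GFPneg cells, against 10.37, 10.79 and 10.85 in WT LK GFPneg cells. In LSK GFPneg-lo it was at 8.97, 8.75 and 8.73 in KO and at 8.46, 8.81 and 8.32 in WT. The GFPhi populations were lower again, at 7.94, 7.54 and 7.77 in KO LSK GFPhi and 7.87, 7.90 and 7.76 in WT LSK GFPhi. In LK GFPhi cells the KO arrays (8.15, 8.11 and 8.08) all lay above the WT arrays (7.74, 7.64 and 7.55). Epor was thus ordered LK GFPneg, LSK GFPneg-lo and then the GFPhi populations in both genotypes. Between neighbours in this order, LK GFPneg exceeded LSK GFPneg-lo by 1.90 ± 0.15 in KO and 2.14 ± 0.15 in WT (log2 difference ± limma SE, as below), a 3.72-fold and a 4.41-fold difference in signal.

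Epor in LK GFPhi was the member closest to a call between genotypes. Its KO mean was 8.11 ± 0.04 and its WT mean 7.65 ± 0.09 (SD, n = 3 each), a log2 difference of 0.47 ± 0.15 with a 95% interval of 0.16 to 0.77 (limma, adjusted p = 0.0514). The differences of Epor in the other populations were 0.29 ± 0.15 in LSK GFPneg-lo, 0.04 ± 0.15 in LK GFPneg and -0.10 ± 0.15 in LSK GFPhi, with overlapping arrays in each. In LK GFPhi minus LSK GFPhi of the same genotype, the Epor difference was 0.36 ± 0.15 in KO (limma adjusted p = 0.336) and -0.20 ± 0.15 in WT (adjusted p = 0.558), neither of them called. The KO effect of LK GFPhi minus that of LSK GFPhi was 0.56 ± 0.21 (unadjusted p = 0.0142, limma adjusted p = 0.476). Epor passed the threshold in LK GFPhi under 4 of 17 other settings, and its adjusted p ranged from 0.0256 with a further quantile normalization to 0.213 with the Y-linked Eif2s3y level as a covariate. Its sign was positive in all 17. Eif2s3y was near 4 on 1 of 3 KO LK GFPhi arrays (4.01, with 7.58 and 7.74 on the others) and at 7.95 to 10.18 on the WT ones. The array at 7.74 is replicate 3, whereas the KO arrays numbered 3 of LSK GFPneg-lo, LSK GFPhi and LK GFPneg were at 4.01, 4.13 and 4.14.

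The transferrin receptor gene Tfrc (chromosome 16, 32608896 to 32632794) had another order. It was at 12.69, 11.95 and 12.90 in KO LK GFPneg cells, against 12.69, 12.50 and 12.85 in WT LK GFPneg cells. Next by group mean came LK GFPhi, at 11.23, 10.97 and 10.81 in KO and at 11.61, 11.09 and 11.79 in WT. The LSK populations were lowest, at 10.52 to 11.07 (LSK GFPneg-lo) and 10.56 to 10.71 (LSK GFPhi) in KO, and at 10.31 to 10.75 and 10.29 to 10.74 in WT. LK GFPneg and LK GFPhi therefore both had more Tfrc signal than the LSK populations in WT cells, and the LSK populations overlapped each other. In KO cells LK GFPhi overlapped LSK GFPneg-lo, and LSK GFPneg-lo minus LK GFPhi was -0.20 ± 0.22, not called (limma, adjusted p = 0.580). In LK GFPhi minus LSK GFPhi, the Tfrc difference was 0.39 ± 0.22 in KO cells and was not called (limma, adjusted p = 0.571), and in WT cells it was 1.02 ± 0.22 (adjusted p = 0.00945).

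Between genotypes, the Tfrc difference in LK GFPhi was -0.49 ± 0.22 (95% interval -0.95 to -0.03, limma adjusted p = 0.172), and the arrays overlapped. Under 17 other settings it lay between -0.69 and -0.20 and passed once, with array weights (adjusted p = 0.0352). Elsewhere the Tfrc difference was -0.17 ± 0.22 in LK GFPneg, 0.34 ± 0.22 in LSK GFPneg-lo and 0.14 ± 0.22 in LSK GFPhi. The probe set 1422966_a_at gave 0.06 ± 0.11 for KO minus WT in LK GFPhi and 1422967_a_at gave -0.15 ± 0.35, neither of them called when each probe set was tested on its own (8.35% of probe sets called). The sign of the Tfrc difference in that population thus depended on the probe set.

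All 3 Tfrc probe sets that are not controls were higher in LK GFPneg than in LK GFPhi in both genotypes, where 20.5% (KO) and 15.1% (WT) of 34945 probe sets were called in either direction. For 1422966_a_at the gap to LK GFPhi was 0.59 ± 0.11 in KO and 0.63 ± 0.11 in WT, and for 1422967_a_at it was 1.04 ± 0.35 and 1.05 ± 0.35, against 1.51 ± 0.22 and 1.18 ± 0.22 for the tested 1452661_at. Arrays of 1422967_a_at nevertheless overlapped between LK GFPneg and LK GFPhi in both genotypes. They were at 6.26 to 7.21 and 5.48 to 6.27 in KO, and at 6.16 to 8.11 and 5.65 to 6.18 in WT.

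**Figure D2:**
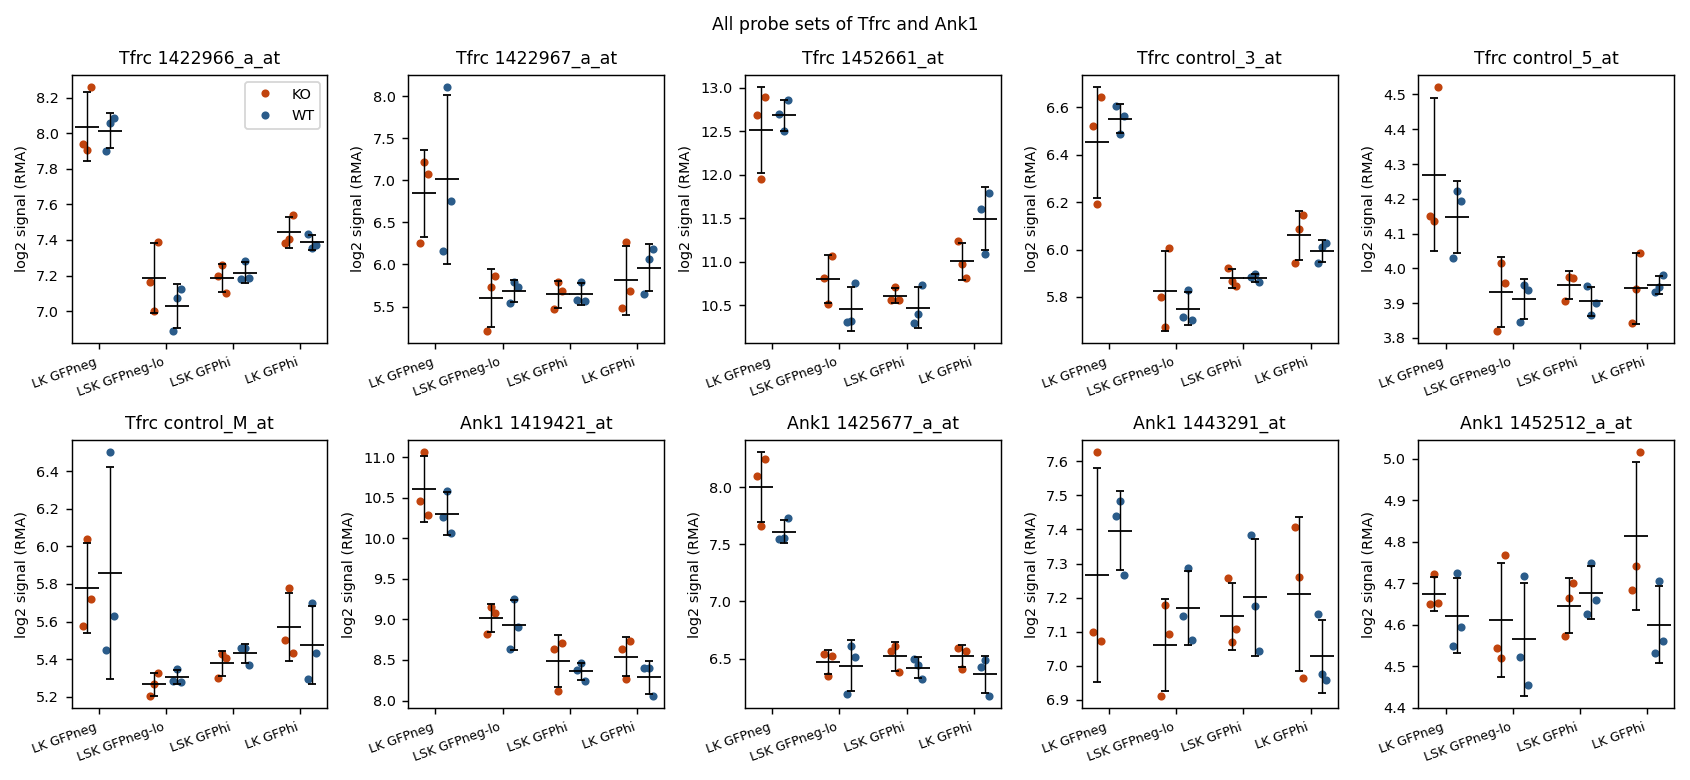
Log2 signal (RMA) of each probe set of Tfrc (3 gene probe sets and 3 array controls) and Ank1 (4 probe sets) on each array, KO (orange) left of WT (blue), with the mean and SD of 3 arrays; the vertical scales differ between panels and do not start at 0. By group mean the 3 gene probe sets of Tfrc and 2 of the 4 probe sets of Ank1 are highest in LK GFPneg cells, and Ank1 1443291_at and 1452512_a_at are nearly level.

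Of the Rh complex genes, Rhag (chromosome 17, 40811099 to 40844094) spanned one of the widest ranges. It was at 11.78, 12.17 and 11.49 in KO LK GFPneg cells, against 11.44, 11.84 and 11.69 in WT LK GFPneg cells. LSK GFPneg-lo cells had 10.36, 9.40 and 9.44 in KO and 8.63, 10.25 and 9.79 in WT. LSK GFPhi cells had 6.48, 5.75 and 6.10 in KO and 5.15, 6.00 and 6.51 in WT, and LK GFPhi cells had 6.20, 5.79 and 7.35 in KO and 5.29, 5.84 and 5.84 in WT. The level in LK GFPneg was 5.70 ± 0.42 above LSK GFPhi in KO and 5.77 ± 0.42 above it in WT, a 52.1-fold and a 54.5-fold difference in signal. The widest genotype difference of any member was Rhag in LK GFPhi, 0.79 ± 0.42 (95% interval -0.09 to 1.67, limma adjusted p = 0.250). There KO replicate 3 was the highest array, replicate 1 also lay above the WT arrays, and replicate 2 lay within their range. Without KO replicate 3 the difference was 0.34.

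Rhd (chromosome 4, 134864536 to 134896172), which encodes the Rh protein that Rhag accompanies, was at 11.62, 10.54 and 11.36 in KO LK GFPneg cells, against 11.64, 11.27 and 11.76 in WT LK GFPneg cells. The LSK GFPneg-lo values were 8.97, 8.38 and 8.73 in KO and 8.10, 8.72 and 8.46 in WT. In LSK GFPhi cells all KO arrays (7.31, 7.01 and 7.17) lay below all WT arrays (7.38, 7.79 and 7.64). This difference of -0.44 ± 0.23 was not called (95% interval -0.91 to 0.03, limma adjusted p = 0.489), and 16.5% of all genes had arrays that did not overlap in this comparison. In LK GFPhi cells Rhd was at 7.54, 7.40 and 7.81 in KO and 7.29, 7.46 and 7.50 in WT, so that the groups overlapped. Rhd stood 2.48 ± 0.23 higher in LK GFPneg than in LSK GFPneg-lo in KO and 3.13 ± 0.23 higher in WT, and the difference between these gaps, -0.65 ± 0.32, was not called (95% interval -1.31 to 0.02, limma adjusted p = 0.900).

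Ermap (chromosome 4, 119175457 to 119190013), which encodes the erythroblast membrane protein of the Scianna blood group, was at 12.71, 12.56 and 12.47 in KO LK GFPneg cells, against 13.02, 13.06 and 12.93 in WT LK GFPneg cells. The 3 KO arrays lay below the 3 WT arrays, a difference of -0.42 ± 0.36 that was not called (95% interval -1.17 to 0.33, limma adjusted p = 0.822), and 13.9% of all genes had arrays that did not overlap there. LSK GFPneg-lo cells had 10.76, 9.93 and 10.25 in KO and 10.53, 11.17 and 10.83 in WT (-0.53 ± 0.36, adjusted p = 0.786). Both GFPhi populations were far lower, with 6.77 to 7.62 and 7.05 to 8.44 in KO LSK GFPhi and LK GFPhi, and 6.86 to 8.22 and 6.78 to 7.82 in the WT ones. The gap of LK GFPneg over LK GFPhi was 4.98 ± 0.36 in KO and 5.58 ± 0.36 in WT.

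Kel (chromosome 6, 41686329 to 41704334) encodes the endopeptidase that carries the Kell blood group. It was at 10.78, 10.84 and 10.65 in KO LK GFPneg cells, against 10.78, 11.15 and 11.10 in WT LK GFPneg cells. LSK GFPneg-lo cells had 8.37, 8.35 and 7.83 in KO and 8.24, 8.69 and 8.14 in WT. The GFPhi populations lay at 6.41 to 7.48 in KO and 6.40 to 7.01 in WT. Kel was 3.77 ± 0.23 higher in LK GFPneg than in LK GFPhi in KO and 4.38 ± 0.23 higher in WT, and the genotype differences ran from -0.25 ± 0.23 in LK GFPneg to 0.35 ± 0.23 in LK GFPhi without a call. Without KO replicate 3 the LK GFPhi difference was 0.10.

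Ank1 (chromosome 8, 22974836 to 23150501) was at 10.46, 11.06 and 10.29 in KO LK GFPneg cells, against 10.26, 10.59 and 10.06 in WT LK GFPneg cells by its brightest probe set, 1419421_at. The other populations lay within a narrow band of 8.12 to 9.15 in KO and 8.06 to 9.25 in WT. LK GFPneg exceeded LK GFPhi by 2.06 ± 0.21 in KO and 2.02 ± 0.21 in WT. The probe set 1425677_a_at gave 1.48 ± 0.14 and 1.25 ± 0.14 for the same gaps, and both were called. By contrast 1443291_at gave 0.06 ± 0.14 and 0.37 ± 0.14, and 1452512_a_at gave -0.14 ± 0.10 and 0.02 ± 0.10, none of them called. The Ank1 pattern thus holds for 2 of its 4 probe sets, and which transcripts each one reads is not stated in the labels or the annotation used. The signal of 1452512_a_at was dim, at 4.45 to 5.02 over all arrays, with only 11.1% of probe sets dimmer by mean.

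The carbonic anhydrase genes Car1 (14766214 to 14808365) and Car2 (14886269 to 14900770) are neighbours on chromosome 3, with 77903 bases between them. Car1 was at 13.93, 13.04 and 13.03 in KO LK GFPneg cells, against 13.75, 13.38 and 13.73 in WT LK GFPneg cells. LSK GFPneg-lo cells had 12.71, 11.07 and 11.07 in KO and 11.65, 11.91 and 11.37 in WT, with KO replicate 1 above all other arrays of both genotypes. Car1 was much lower in LSK GFPhi, at 8.20, 6.65 and 7.60 in KO and 7.32, 7.66 and 8.40 in WT, and in LK GFPhi, at 7.90, 7.31 and 9.02 in KO and 7.07, 7.42 and 8.15 in WT. LK GFPneg lay 5.26 ± 0.48 above LK GFPhi in KO and 6.07 ± 0.48 above it in WT, a 38.3-fold and a 67.2-fold difference in signal. The genotype difference of Car1 was -0.28 ± 0.48 in LK GFPneg, -0.03 ± 0.48 in LSK GFPneg-lo, 0.53 ± 0.48 in LK GFPhi and -0.31 ± 0.48 in LSK GFPhi. Its 95% intervals reached about 1 log2 unit to either side of each value, the widest of any member.

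Car2 was high in more populations. It was at 13.58, 13.08 and 13.30 in KO LK GFPneg cells, against 13.51, 13.17 and 13.56 in WT LK GFPneg cells. LSK GFPneg-lo cells had 12.90, 12.30 and 12.54 in KO and 13.11, 12.18 and 12.78 in WT, LSK GFPhi cells 11.32, 10.98 and 11.13 in KO and 11.70, 10.28 and 11.75 in WT. LK GFPhi cells were lowest, with 10.39, 9.34 and 10.60 in KO and 9.76, 9.59 and 10.13 in WT. The step between the highest neighbours was 0.74 ± 0.34 in KO and 0.72 ± 0.34 in WT, not called in either genotype (limma, adjusted p = 0.141 for each, 95% intervals 0.02 to 1.46 and 0.00 to 1.44). With replicate number as a block, this step was called in both genotypes. In LK GFPhi minus LSK GFPhi, Car2 was at -1.03 ± 0.34 in KO, which was not called (limma, adjusted p = 0.198), and lower at -1.42 ± 0.34 in WT (adjusted p = 0.0210). Car1 arrays of the GFPhi populations, in contrast, overlapped in both genotypes.

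**Figure D3:**
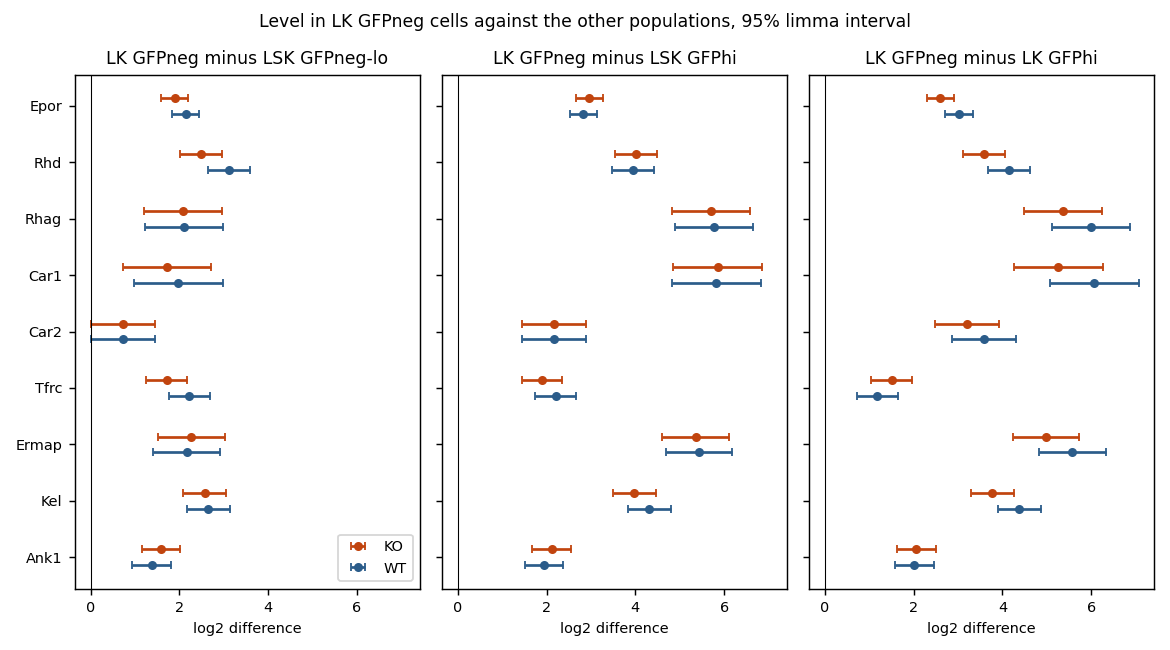
Log2 difference of LK GFPneg minus each other population for each gene, in KO (orange, above) and WT (blue, below), with 95% limma intervals from 3 arrays per group. Every point lies right of 0, from 0.72 for Car2 against LSK GFPneg-lo in WT to 6.07 for Car1 against LK GFPhi in WT.

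LSK GFPneg-lo cells came second for most of the genes. Of the 9, 7 were higher there than in LSK GFPhi in KO and 7 in WT, where 1.42% and 2.89% of all genes were called higher. The uncalled ones were Tfrc and Ank1 in both genotypes. Against LK GFPhi, 7 were higher in KO, with Tfrc and Ank1 again not called, while in WT 8 were higher and Tfrc was lower (-1.03 ± 0.22). Of all genes, 6.51% were called higher and 4.81% lower in that KO comparison, and 7.9% higher and 4.73% lower in the WT one. Rhag, Car1 and Ermap stood 3.62 ± 0.42, 4.13 ± 0.48 and 3.09 ± 0.36 above LSK GFPhi in KO, and 3.67 ± 0.42, 3.85 ± 0.48 and 3.27 ± 0.36 above it in WT. The count against LSK GFPhi fell to 6 in KO without LSK GFPneg-lo replicate 1 or 3 or without any LSK GFPhi replicate. In WT it fell to 5 without LSK GFPneg-lo replicate 2 or 3 or LSK GFPhi replicate 2, and to 6 without each of the other 3 arrays. The mean of 15 megakaryocyte genes was also highest in LSK GFPneg-lo (group means of 9.90 in KO and 9.22 in WT, against 8.11 and 8.43 in LK GFPneg), and its part in these levels was not tested.

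Fewer of the genes were called between the GFPhi populations than in the population comparisons above. In LK GFPhi minus LSK GFPhi, 0 of 9 genes passed in KO (limma, 2 at an unadjusted p below 0.05), and in WT Tfrc was higher and Car2 lower, with 1.18% and 4.55% of all genes called. In WT the count was 0 without replicate 1 of either population and 1 without replicate 3 of either.

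Loss of Ikaros was not accompanied by a called change of any member. In KO minus WT, 0 of 9 genes passed in LK GFPhi (9.56% of all genes called), 0 in LSK GFPneg-lo (2.14%), 0 in LSK GFPhi (4.6%) and 0 in LK GFPneg (2.65%). At an unadjusted p below 0.05 the limma counts were 2 (Epor and Tfrc), 0, 0 and 0 in the same order. The median difference of the 9 genes was 0.28 in LK GFPhi, 0.09 in LSK GFPneg-lo, -0.10 in LSK GFPhi and -0.17 in LK GFPneg, beside 0.07, 0.03, 0.01 and 0.04 over all genes. Arrays of the groups did not overlap for 1, 0, 1 and 1 of the genes in the same order, beside 24.8%, 15.9%, 16.5% and 13.9% of all genes. The half-width of the 95% interval ran from 0.31 for Epor to about 1 log2 unit for Car1, so that a smaller change of Car1 would lie within its error. The difference between populations of the KO effect was called for 0 of 9 genes in each of 4 contrasts (limma, 0, 0, 0 and 1 at an unadjusted p below 0.05). These contrasts were LK GFPneg minus LSK GFPneg-lo, minus LSK GFPhi and minus LK GFPhi, and LK GFPhi minus LSK GFPhi, with 0.808%, 1.97%, 2.5% and 0.143% of all genes called.

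**Figure D4:**
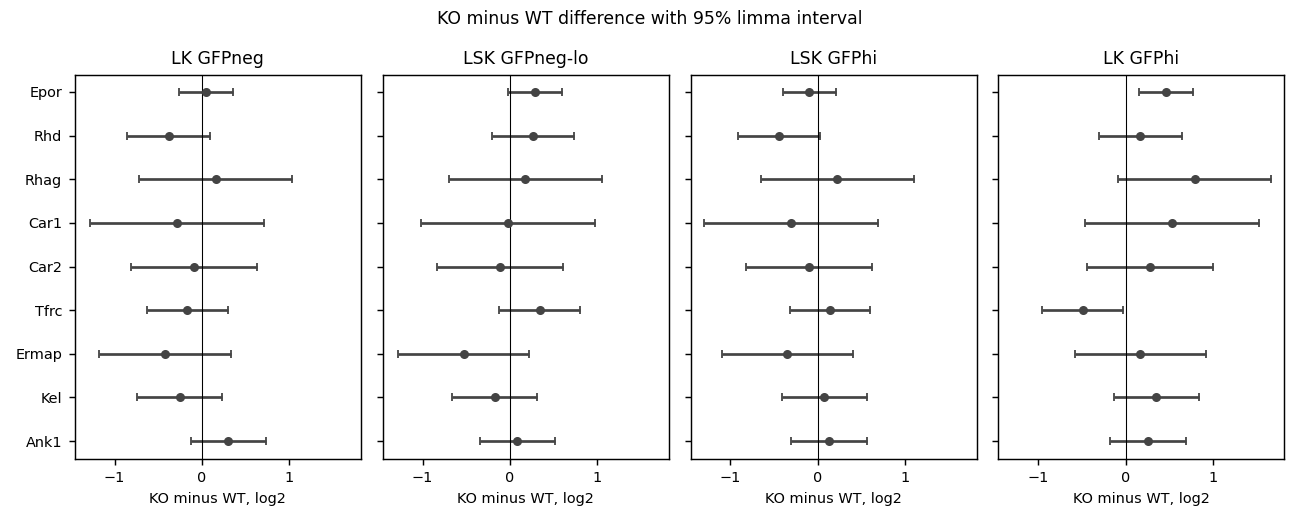
KO minus WT difference (log2) of each gene in each population, with 95% limma intervals from 3 arrays per group. All intervals include 0 except those of Epor (0.16 to 0.77) and Tfrc (-0.95 to -0.03) in LK GFPhi, neither of which passed after adjustment.

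On KO LK GFPhi replicate 3, 8 of the 9 genes lay above all WT arrays and Tfrc lay below them, while the counts above WT were 5 for replicate 1 and 1 for replicate 2. The same counts for single arrays were not made over all genes, of which 24.8% did not overlap between the whole groups. They therefore describe the arrays and do not set the members apart from other genes. The median of the genes minus their WT means was 0.77 on replicate 3, 0.35 on replicate 1 and -0.02 on replicate 2. Without replicate 3 the median KO minus WT difference was 0.06, where it was 0.28 with all arrays. Rhag was then 0.34 (0.79 with all arrays), Car1 0.06 (0.53), Kel 0.10 (0.35), Car2 0.04 (0.28), Ank1 0.16 (0.26) and Rhd 0.05 (0.17). Ermap was -0.25 (0.17 with all arrays), while Epor was 0.48 (0.47) and Tfrc -0.39 (-0.49).

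Several genes known from other lineages, and the erythroid transcription factor genes Gata1 and Klf1, were also highest on that array. The eosinophil gene Prg2 was at 8.27, 10.18 and 11.96 in KO LK GFPhi replicates 1, 2 and 3, against 5.07 to 5.85 in WT, and Epx at 6.81, 8.85 and 11.66, against 5.20 to 5.56. The mean of 6 eosinophil genes was 6.63 to 8.91 in KO and 5.48 to 5.75 in WT, and that of 10 mast and basophil genes 8.78 to 9.54 in KO and 7.39 to 7.72 in WT. Gata1 was at 8.53, 9.51 and 10.99 in KO and at 7.49 to 7.62 in WT, and Klf1 at 7.14, 7.62 and 9.28 in KO and at 6.63 to 6.93 in WT. Megakaryocyte genes, 15 in number, had a mean of 8.58 to 9.01 in KO and 7.52 to 8.09 in WT. The part of eosinophils, mast cells, basophils, megakaryocytes or erythroid cells in the levels of Rhag, Car1 and the other members was not tested.

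**Figure D5:**
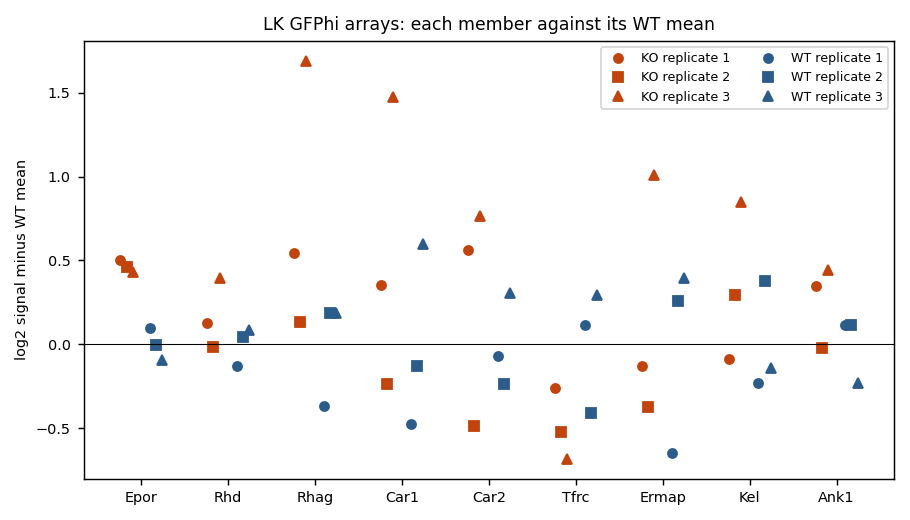
Log2 signal of each gene on each LK GFPhi array minus the mean of the 3 WT LK GFPhi arrays, KO (orange) left of WT (blue), with a marker shape for each replicate number. KO replicate 3 (triangles) is the highest array for 7 of 9 genes in its group, and the KO arrays of Epor lie together above all WT arrays.

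The other genes of the same pathways gave few calls between genotypes, and most of these lists had more in LK GFPhi. Of all genes, 9.56% were called there, 2.14% in LSK GFPneg-lo, 4.6% in LSK GFPhi and 2.65% in LK GFPneg. Among 21 further genes of Epor signalling, Socs3, which encodes a feedback inhibitor of cytokine receptors, rose in KO cells of all 4 populations (3.45 ± 0.35 in LK GFPhi, 2.38 ± 0.35 in LSK GFPhi, 1.95 ± 0.35 in LSK GFPneg-lo and 1.32 ± 0.35 in LK GFPneg). Stat5b, which encodes a transcription factor activated by the receptor, fell in LK GFPhi (-0.58 ± 0.12). No other gene of this list was called. Its median was 0.03 in LK GFPhi and 0.10 in LK GFPneg, beside 0.07 and 0.04 over all genes.

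Of 19 further iron genes, 3 rose and 1 fell in KO LK GFPhi cells, where 9.56% of all genes were called, and the list's median was near 0. Hfe, the hemochromatosis gene whose product binds the transferrin receptor, rose by 1.73 ± 0.27, and Tfr2, which encodes the second transferrin receptor, rose by 2.11 ± 0.35 (10.29, 10.66 and 11.44 in KO and 7.99, 9.20 and 8.85 in WT). Slc40a1, which encodes the iron exporter ferroportin, rose by 1.67 ± 0.35, and the vesicle tethering gene Exoc6 fell (-0.40 ± 0.07). The count stayed at 4 without KO replicate 3. Hfe also rose in LSK GFPhi (1.54 ± 0.27) and LK GFPneg (1.24 ± 0.27), and Slc40a1 rose in LSK GFPhi (1.59 ± 0.35). The list had no call in LSK GFPneg-lo.

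Of 24 further membrane and skeleton genes, Slc2a1, which encodes the glucose transporter, rose by 0.96 ± 0.22 in KO LK GFPhi cells and the adhesion receptor gene Cd44 fell (-1.09 ± 0.17). The list's median there was 0.05, beside 0.07 over all genes, of which 9.56% were called. Add1, which encodes the skeleton protein adducin, rose by 0.47 ± 0.10 in LK GFPneg, and the water channel gene Aqp1 rose by 1.26 ± 0.36 in LSK GFPhi. Among 16 further blood group and Rh family genes, Cd44 and Aqp1, which are also on this list, and Sema7a (-0.56 ± 0.13 in LSK GFPneg-lo) were the called ones. Of 14 further carbonic anhydrase genes, Car13 rose by 0.88 ± 0.19 in LK GFPneg, and Car9 and Car6 rose by 0.67 ± 0.18 and 0.26 ± 0.08 in LK GFPhi. Without KO LK GFPhi replicate 3, Car9 was at 0.54 and Car6 at 0.22 and 0 carbonic anhydrase genes passed in that population (limma, adjusted p = 0.128 and 0.153).

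The median KO minus WT difference of 17 erythroid transcription factor genes in LK GFPhi was 0.16, beside 0.07 over all genes. There 9.56% of all genes were called in either direction, and 7 of these 17 genes rose in KO cells and 0 fell. They were Gata2 (1.39 ± 0.18), Nfe2 (0.86 ± 0.13), Sox6 (1.51 ± 0.24), Tal1 (1.09 ± 0.20), Gata1 (2.14 ± 0.45), Zfpm1 (1.25 ± 0.28) and Klf1 (1.27 ± 0.36), with 6 called without KO replicate 3 and 4 with the replicate block. The call lost without that array was Klf1, at 0.64 (limma, adjusted p = 0.162). Gata2 is also a mast cell and basophil gene and Nfe2 a megakaryocyte gene. Sox6 rose in LSK GFPhi too (0.95 ± 0.24). In LK GFPneg, Gata2 fell (-0.77 ± 0.18), and Trim10, of the late erythroid list, fell too (-1.14 ± 0.19). In LK GFPhi the late erythroid genes Hemgn (1.23 ± 0.21) and Hbb-bh1 (0.36 ± 0.08) rose, and of 11 heme synthesis genes Urod (0.78 ± 0.20) and Alad (0.84 ± 0.24) did. Without KO replicate 3, Urod was at 0.61 and Alad at 0.80, neither of them called (limma, adjusted p = 0.110 and 0.104).

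Between populations, some of these lists followed the members and others did not. In LK GFPneg minus LK GFPhi, 4256 of 18193 genes were called in KO and 3380 in WT. Those called higher were 10.6% and 8.6% of all genes. In LK GFPneg minus LK GFPhi, 10 of 11 heme synthesis genes were higher and 1 lower in KO, and 9 and 1 in WT (medians 1.09 and 1.48, beside -0.03 and 0.00 over all genes). Of the 16 blood group and Rh family genes, 10 were higher and 0 lower in KO, and 8 and 0 in WT, led by Aqp1 (4.81 ± 0.36 in KO and 5.94 ± 0.36 in WT). Of the 21 Epor signalling genes, 3 were higher and 7 lower in KO, and 4 and 7 in WT. Of the 14 carbonic anhydrase genes other than the members, 1 was higher (Car13) and 2 lower (Car9 and Car12) in both. Of 11 globin and late erythroid genes, 3 were higher and 0 lower in KO, and 2 and 0 in WT. Hemgn was higher in both (2.56 ± 0.21 in KO and 3.83 ± 0.21 in WT), while Slc4a1, which encodes the anion exchanger, gave 0.04 ± 0.11 in KO and 0.15 ± 0.11 in WT without a call.

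Across the 24 arrays the 36 pairs of members correlated at r = 0.439 (Car2 and Tfrc) to r = 0.986 (Car1 and Ermap), with a median of 0.906. These values describe 8 groups of 3 arrays that share the population differences above. Of the deviations from the group means, 28 of 36 pairs had r above 0, from -0.59 (Tfrc and Ank1) to 0.85 (Rhag and Ermap), with a median of 0.22. The genes most like each member over 24 arrays were Tspo2 for Epor (r = 0.988), Tlcd4 for Rhd (0.985), Myh10 for Rhag (0.986), Car1 (0.975) and Ermap (0.987), and Abcb4 for Kel (0.988). For Tfrc it was Selenoi (0.979), for Ank1 Slc22a23 (0.975) and for Car2 Mbp (0.937). The next were Igsf3 and Reps2 for Epor, Aldh1a7 and Cldn13 for Rhd, Slc38a5 and Sphk1 for Rhag, Aldh1a1 and Slc38a5 for Car1, and Xrcc5 and Hemgn for Car2. For Tfrc they were Macir and Afg3l2, for Ermap Trib2 and Abcb4, for Kel Aldh1a7 and Myo1d, and for Ank1 Cachd1 and Pvt1, and all 27 correlations were at least 0.933.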

How the data were processed

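Total RNA was extracted with Trizol and labelled as biotinylated cRNA from 6 ug, per the labels' protocols, and hybridised to 24 one-colour arrays. The deposited values are log2 signal made by the authors with RMA, per the submitters' processing notes; no RMA version is named there. RMA sets all arrays to one distribution, so a change shared by most genes would not show. The table holds 45101 probe sets, from which 64 controls, 932 with several symbols and 9160 with none were left out. Entrez IDs placed 34741 of the 34945 remaining probe sets in RefSeq's gene table, and the brightest probe set by mean over all arrays was kept for each of 18193 genes. Array medians ran from 6.57 to 6.75, and arrays of a group correlated at r = 0.976 to 0.994 over genes, which are not independent replicates.

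A model of 8 group means over 24 arrays was fitted with limma 3.58.1 under R 4.3.3, with lmFit then eBayes, and had 16 residual and 3.27 prior degrees of freedom. Each comparison's two-sided p-values received the Benjamini-Hochberg adjustment across all genes, at a threshold of 0.05. An exact permutation test of 3 against 3 arrays cannot go below 0.1. Of the 20 comparisons, 4 (LSK GFPneg-lo against the GFPhi populations) were added after their values were seen. The members and gene lists were chosen with earlier results of these data known. Named list genes are the called ones with the smallest adjusted p, up to 3 per list and comparison, and any further ones were chosen once values were known. The 3 most correlated genes were named for each member, passing over clone symbols.

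Same-numbered arrays were checked for pairing through the correlation of their deviations from group means across genes. The lowest value between KO and WT was above 0.1 in LK GFPneg (0.359), LSK GFPneg-lo (0.276) and LK GFPhi (0.175), but not in LSK GFPhi (0.0238). Between populations of WT cells the lowest values ran from 0.171 (LK GFPneg and LSK GFPneg-lo) to 0.582 (LK GFPhi and LSK GFPhi). In KO cells they ran from -0.0176 (LK GFPneg and LSK GFPhi) to 0.268 (LSK GFPneg-lo and LSK GFPhi). The reported fit holds no replicate term, and the replicate block is among the other settings. The replicate numbers come from the titles. The steps were tested on simulated data.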

Additional observations from a re-analysis of the deposited data

How the results depend on the processing

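The 9 genes were recounted under fits of the compared groups alone, the replicate block, no dim probe sets (the lowest 40%), no probe sets ending in _x_at, _s_at or _a_at, probe sets averaged per gene, array weights, eBayes with trend and robust options, centring on medians, one more quantile normalization, Eif2s3y as a covariate, and each array left out in turn. Testing each probe set on its own was added after seeing the data. Of the 36 KO minus WT differences of the members, none of them called as reported, 21 had another sign under at least 1 of 17 settings, in no case with a call. For KO minus WT in LK GFPhi the count of 0 became 1 (Epor) without the dimmest probe sets, 1 with the mean of all probe sets, 1 with quantile normalization and 2 with array weights. For LK GFPhi minus LSK GFPhi in WT the count of 2 became 0 with the compared groups alone and 1 with the mean of all probe sets, and ranged from 0 to 2 with single arrays left out. In KO that count of 0 became 1 with array weights. For LSK GFPneg-lo minus LSK GFPhi in WT the count of 7 became 4 with the compared groups alone. The other 352 recounts stayed within 1.5 times. LK GFPneg minus LSK GFPneg-lo in KO gave 7 to 8 with single arrays left out, and 9 with the replicate block, as it did in WT. The replicate block changed no call of a member between genotypes; LSK GFPneg-lo minus LSK GFPhi in WT gave 8, and LSK GFPneg-lo minus LK GFPhi in KO gave 6. Over all genes, KO minus WT calls ranged from 199 to 1120 in LSK GFPneg-lo (389 as reported), 499 to 1288 in LSK GFPhi (837), 209 to 1210 in LK GFPneg (483) and 491 to 3240 in LK GFPhi (1740), with array weights the highest in each. The median KO minus WT difference of the 9 genes kept its sign in no population but LK GFPhi (0.06 to 0.44). The cause of these shifts was not tested.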
